A study of Homo sapiens with 11 samples.

Results

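ALYREF and 9 other genes of the nuclear mRNA export machinery are described here in 2 pancreatic cancer cell lines treated with siRNA against MYEOV. The 10 genes, of 58735 in the count files, were named by function: the THO subunits THOC1, THOC2, THOC3, THOC5, THOC6 and THOC7, the helicases DDX39A and DDX39B, the adaptor ALYREF and the receptor NXF1. ALYREF was picked because its mRNA is far lower in the siRNA libraries of both lines, so its siRNA values are given as a description with no test. The other 9 genes were taken as its partners in export, with earlier results of these data known.

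RNA-seq was run on 11 libraries from AsPC-1, a line from ascites of a pancreatic adenocarcinoma grown in RPMI 1640, and PANC-1, a pancreatic ductal carcinoma line grown in DMEM. The groups were 3 AsPC-1 libraries 48 h after lipofectamine transfection with MYEOV siRNA, 2 AsPC-1 controls, 3 PANC-1 libraries with MYEOV siRNA and 3 PANC-1 controls. Both lines were kept with 10% fetal bovine serum. The labels call the controls wild type and untreated, while a negative-control siRNA and a pair of MYEOV siRNAs appear in the protocol, so it is unsettled whether the controls were transfected. Nor is it settled whether the number of an siRNA library is that of a replicate or of a different siRNA. Separate cultures within a group are not stated, so the spread that p-values are measured against, that among these libraries, may be technical.

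In the nucleus, the THO complex recruits the DEAD-box ATPase DDX39B (UAP56) or its close relative DDX39A to nascent transcripts, and together with ALYREF they form TREX, the transcription-export complex. ALYREF binds the mRNA and hands it to NXF1, which with its partner NXT1 carries the mRNA through the nuclear pore. ALYREF is one of several adaptors that can do this, and it contacts the cap-binding complex and the exon junction complex on spliced mRNA.

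The libraries held 12113093 to 15066456 gene counts and detected 22050 to 24025 genes. Levels are counts per 1000000 (CPM) scaled by TMM over all 11 libraries, and a gene is said to have risen or fallen where edgeR's quasi-likelihood test gave an adjusted p under 0.05 over all genes tested. MYEOV averaged 47.3 ± 3.97 CPM in AsPC-1 siRNA libraries and 130.3 ± 0.906 CPM in AsPC-1 controls (SD, n = 3 and 2), which is 36.3% of control (edgeR adjusted p = 1.95e-16). In PANC-1 it averaged 37.8 ± 1.98 CPM with siRNA and 69.3 ± 5.41 CPM in controls (SD, n = 3 each), 54.5% of control (edgeR adjusted p = 4.19e-06). All 6 ductal epithelial markers listed (KRT7, KRT8, KRT18, KRT19, EPCAM and CDH1) had at least 10 counts in every library. Their summed level was 18450 to 18970 CPM in AsPC-1 siRNA libraries against 18080 to 18270 CPM in AsPC-1 controls. Within that sum KRT8 averaged 10580 CPM with siRNA and 10520 CPM in controls, and KRT19 averaged lower with siRNA (3237 against 3569 CPM). Averages were higher with siRNA for KRT18 (3439 against 3020 CPM), EPCAM (1271 against 977 CPM), CDH1 (107 against 90.1 CPM) and KRT7 (2.71 against 1.56 CPM). In PANC-1 the sum was 1931 to 1964 CPM with siRNA against 2265 to 2534 CPM in controls. There KRT8, KRT18 and KRT19 made up most of the sum and averaged lower with siRNA. EPCAM averaged higher, at 7.54 CPM with siRNA and 5.88 CPM in controls, as did CDH1, at 11.1 and 8.11 CPM. KRT7 was low in PANC-1, at 1.57 and 1.46 CPM. The 5 fibroblast markers summed to 46.9 to 48.4 CPM in PANC-1 siRNA libraries and 33.6 to 40.4 CPM in PANC-1 controls, with DCN at 0. They summed to at most 2.38 CPM in AsPC-1. The PANC-1 sum was mostly COL1A1, at 41.9 CPM with siRNA and 33.2 CPM in controls. COL3A1 also averaged higher with siRNA in PANC-1, at 4.94 against 3.35 CPM, and PDGFRB lower, at 0.584 against 1.01 CPM. Leukocyte and endothelial markers summed to at most 0.987 and 0.740 CPM in any library. The part of these marker differences in the results was not tested. In bulk libraries, fewer cells expressing a gene and less of its RNA per cell cannot be told apart.

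The 3′ untranslated region (UTR) of ALYREF is shown because it holds the 7-base word CTCATGT, which the 3′ UTRs of the other 9 genes lack. The word came from an earlier analysis of these same fold changes, in which genes carrying it were lower in the siRNA libraries, so lower values in carriers are part of its choice. It was searched on the transcript strand in the GENCODE release 29 transcripts (GRCh38). ALYREF lies on chromosome 17 (81887844 to 81891586, minus strand), and its 287-base 3′ UTR in ALYREF-202 has 1 copy at bases 133 to 139. The site is given 5′ to 3′ with the word in capitals.
ALYREF: ggatttaaaaaCTCATGTaaaggtttttt
Of the tested genes with a 3′ UTR, 14.1% of 11945 in AsPC-1 and 14.2% of 12516 in PANC-1 carried the word. A match is a description of the sequence only.

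ALYREF, the adaptor, was far lower with MYEOV siRNA in both lines. In AsPC-1 it measured 20.0, 20.9 and 22.8 CPM in the siRNA libraries, against 62.9 and 59.3 CPM in the controls. In PANC-1 it measured 32.0, 33.1 and 36.2 CPM with siRNA, against 80.9, 80.5 and 81.7 CPM in controls. Every siRNA library was below every control of its line, and below every control of the other line too. The mean was 34.7% of control in AsPC-1 and 41.7% of control in PANC-1.

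The ALYREF values rested on 239 to 275 counts in AsPC-1 siRNA libraries and 669 to 829 counts in AsPC-1 controls. In PANC-1 they rested on 460 to 521 counts with siRNA and 1097 to 1293 counts in controls. The log2 fold change of ALYREF, siRNA over control, was -1.54 (SE 0.071) in AsPC-1 and -1.27 (SE 0.064) in PANC-1. Since ALYREF was picked for this fall, these SEs describe the fit and are no test of it. Counted from the deepest fall, that placed ALYREF at position 30 of 14304 genes in AsPC-1 and 7 of 14929 in PANC-1. Among the more abundant genes, with mean log2 CPM from 5 upward, it was at position 4 of 5928 in AsPC-1 and 2 of 6461 in PANC-1. The log2 difference in response, PANC-1 minus AsPC-1, was 0.26, given as a description with no test. It rests on the values for which ALYREF was picked, so whether the responses of the lines differ is not decided here.

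The smaller share of ALYREF in the set with siRNA restates the fall for which it was picked. It made up 2.47% of the summed CPM of the 10 genes in AsPC-1 siRNA libraries and 6.68% in AsPC-1 controls. In PANC-1 the share was 4.34% with siRNA and 9.81% in controls.

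**Figure D1:**
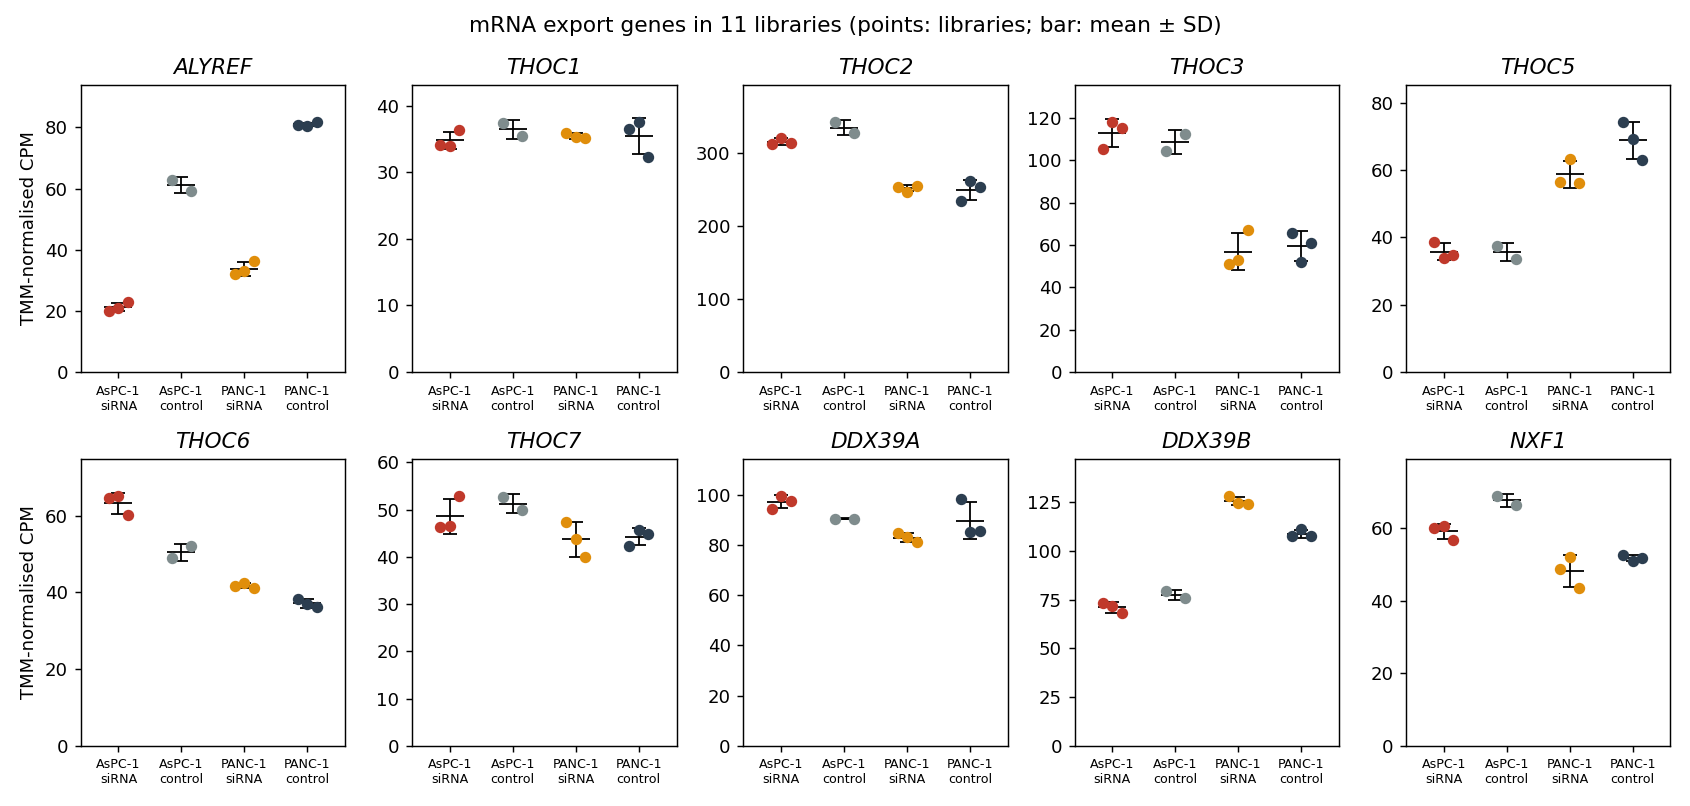
TMM-scaled CPM (y axis, linear from 0) of the 10 mRNA export genes in each library, by line and treatment; points are libraries and bars the mean ± SD (n = 3, 2, 3 and 3). ALYREF lies at 20.0 to 22.8 CPM in AsPC-1 siRNA libraries against 59.3 to 62.9 CPM in controls, while the siRNA means of the other 9 genes are 85.3% to 125.5% of their control means.

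Set per kilobase of the longest coding transcript, ALYREF changed its place among the 10 genes. Its lower places with siRNA follow from the fall for which it was picked and are a description. In PANC-1 controls it was the most abundant, at 74.5 ± 0.526 CPM per kb (SD, n = 3), above DDX39A with 61.0 ± 5.11 CPM per kb, and their libraries did not overlap. With siRNA in PANC-1 it held place 6 at 31.0 ± 2.02 CPM per kb (SD, n = 3), overlapping THOC3 and THOC6. In AsPC-1 siRNA libraries it held place 7 at 19.5 ± 1.29 CPM per kb (SD, n = 3), below DDX39B and above THOC1 with no overlap. In AsPC-1 controls it held place 4 at 56.2 ± 2.37 CPM per kb (SD, n = 2), below DDX39A, THOC3 and THOC2 and above THOC7 with no overlap, while THOC3 overlapped both DDX39A and THOC2. With the merged exon length of each gene in place of the longest transcript, ALYREF was at place 6 in AsPC-1 siRNA libraries, 1 in AsPC-1 controls, 5 in PANC-1 siRNA libraries and 1 in PANC-1 controls.

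Of the 9 other genes, 1 rose and 3 fell with MYEOV siRNA in AsPC-1, where 32.9% of all 14304 genes tested were called (16.6% higher and 16.3% lower). In PANC-1, 1 of the 9 rose and none fell by edgeR, where 9.08% of 14929 genes were called (4.16% higher and 4.92% lower). At an unadjusted p under 0.05, PANC-1 gave 2 higher and 1 lower, and DESeq2 with adjustment gave 1 higher and 0 lower. The median log2 fold change of the 9 genes was -0.084 in AsPC-1, beside -0.0024 over all genes, and -0.017 in PANC-1, beside -0.0014 over all genes. Libraries of siRNA and control did not overlap for 5 of the 9 genes in AsPC-1 (2 higher and 3 lower), against 54.2% of all genes (28.9% higher and 25.4% lower). They did not overlap for 3 of the 9 in PANC-1 (2 higher and 1 lower), against 28.4% of all genes (13.7% higher and 14.7% lower).

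**Figure D2:**
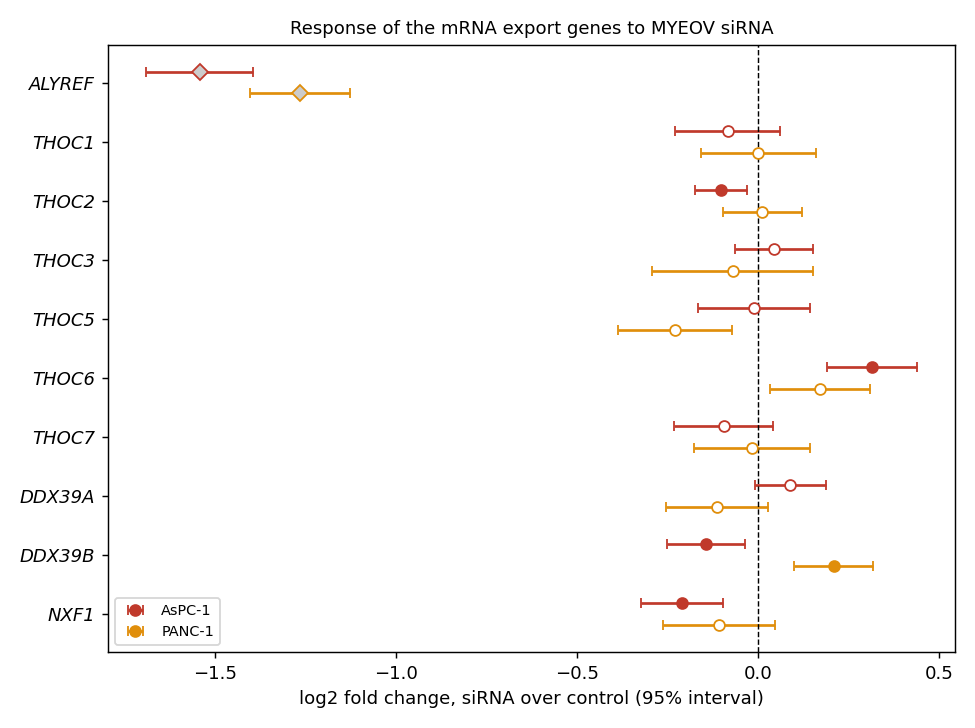
Log2 fold change, siRNA over control (x axis), of the 10 genes in AsPC-1 (red) and PANC-1 (orange), with a 95% interval derived from edgeR's test. Filled circles passed the adjusted p threshold of 0.05 and open circles did not. Grey diamonds mark ALYREF, which was picked for this fall and not tested, so its interval is a description. ALYREF lies at -1.54 and -1.27, and the other 9 genes lie between -0.23 and 0.31.

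Among the THO subunits, THOC6 rose in AsPC-1. THOC6, a WD-repeat protein, is part of the THO core and variants in its gene cause a neurodevelopmental syndrome. It measured 64.6, 65.1 and 60.1 CPM with siRNA, against 48.9 and 52.0 CPM in controls. All 3 siRNA libraries were above both controls, and the change was 0.31 on the log2 scale (SE 0.060, edgeR adjusted p = 0.00019). The call held in every alternative run, with adjusted p up to 0.0222.

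In PANC-1, THOC6 measured 41.7, 42.5 and 41.2 CPM with siRNA, against 38.3, 37.0 and 36.1 CPM in controls. The libraries did not overlap, but the change of 0.17 on the log2 scale (95% interval 0.032 to 0.31) did not pass (edgeR adjusted p = 0.123). The responses of the lines were not shown to differ (log2 difference -0.16, 95% interval -0.35 to 0.030, edgeR adjusted p = 0.402). THOC6 shares 260 exon bases, 14.0% of its exons, with HCFC1R1 on the opposite strand. HCFC1R1 changed by 0.28 on the log2 scale in AsPC-1 (edgeR adjusted p = 0.00278) and by 0.17 in PANC-1 (edgeR adjusted p = 0.173). The strand setting was not given in the sources used here, so reads of the overlap may belong to either gene.

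THOC2, the large scaffold subunit of THO, fell slightly in AsPC-1. It measured 312.0, 321.3 and 313.6 CPM with siRNA, against 342.2 and 328.1 CPM in controls. The groups did not overlap, with a change of -0.10 on the log2 scale (SE 0.035, edgeR adjusted p = 0.0245). The call was lost without control replicate 1 (adjusted p = 0.243) or 2 (0.0526), or siRNA replicate 1 (0.0696) or 3 (0.0547). It was also lost with no count filter (0.0505), in DESeq2 (0.0706) and in 1 fit over all 4 groups (0.234). In PANC-1 the libraries overlapped, at 253.5, 246.9 and 254.4 CPM with siRNA and 234.6, 261.3 and 253.0 CPM in controls (log2 difference 0.011, 95% interval -0.098 to 0.12, edgeR adjusted p = 0.925).

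THOC5, which in mouse is required for blood stem cell maintenance, came short of the threshold in PANC-1. It measured 56.4, 63.3 and 56.2 CPM with siRNA, against 74.1, 69.2 and 63.0 CPM in controls. The highest siRNA library lay just above the lowest control. The change was -0.23 on the log2 scale (95% interval -0.39 to -0.073, edgeR adjusted p = 0.0658). It passed without control replicate 3 (0.0462) or siRNA replicate 2 (0.0489), with no count filter (0.0251) and in 1 fit over all 4 groups (0.036). In AsPC-1 THOC5 averaged 35.8 ± 2.48 CPM with siRNA and 35.6 ± 2.70 CPM in controls (SD, n = 3 and 2). That difference was -0.012 on the log2 scale, with a 95% interval of -0.17 to 0.14.

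The remaining THO subunits did not pass in either line. THOC1, the subunit first named for its retinoblastoma protein binding, averaged 34.8 ± 1.31 CPM with siRNA and 36.5 ± 1.45 CPM in controls in AsPC-1 (SD, n = 3 and 2). In PANC-1 it averaged 35.5 ± 0.429 CPM with siRNA and 35.5 ± 2.76 CPM in controls (SD, n = 3 each). Its 95% intervals were -0.23 to 0.061 in AsPC-1 and -0.16 to 0.16 in PANC-1 on the log2 scale. THOC7, a coiled-coil subunit, averaged 48.6 ± 3.72 CPM with siRNA and 51.3 ± 1.97 CPM in controls in AsPC-1 (SD, n = 3 and 2). In PANC-1 it averaged 43.7 ± 3.70 CPM with siRNA and 44.3 ± 1.77 CPM in controls (SD, n = 3 each), and its 95% intervals were -0.23 to 0.041 in AsPC-1 and -0.18 to 0.14 in PANC-1 on the log2 scale.

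THOC3, a WD-repeat subunit, averaged 112.9 ± 6.65 CPM with siRNA and 108.6 ± 5.62 CPM in controls in AsPC-1 (SD, n = 3 and 2). In PANC-1 it averaged 57.0 ± 8.82 CPM with siRNA and 59.6 ± 7.09 CPM in controls (SD, n = 3 each), the widest relative spread of the 10 genes. The 95% intervals were -0.065 to 0.15 in AsPC-1 and -0.29 to 0.15 in PANC-1 on the log2 scale. Counts of THOC3 are uncertain, since 51.0% of its 100-base windows (865 of 1697) also occur in the pseudogene AC106795.1.

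DDX39B moved in opposite directions in the lines. DDX39B, the ATPase that links THO to ALYREF, measured 73.2, 71.8 and 68.2 CPM with siRNA in AsPC-1, against 79.5 and 75.8 CPM in controls. In PANC-1 it measured 128.2, 124.6 and 124.3 CPM with siRNA, against 107.5, 111.1 and 107.8 CPM in controls. All siRNA libraries were below the controls in AsPC-1 and above them in PANC-1. The log2 change was -0.14 in AsPC-1 (SE 0.052, edgeR adjusted p = 0.0355) and 0.21 in PANC-1 (SE 0.051, edgeR adjusted p = 0.0208).

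The difference between these responses, PANC-1 minus AsPC-1, was 0.34 on the log2 scale (95% interval 0.18 to 0.49, edgeR adjusted p = 0.00965), and DDX39B was the 1 gene of the 9 called there, where 4.36% of 16680 genes were called (2.07% higher and 2.28% lower). The AsPC-1 call was lost without control replicate 1 (adjusted p = 0.268) or 2 (0.0803), or siRNA replicate 2 (0.0565) or 3 (0.13), with no count filter (0.0808), in DESeq2 (0.166) and in 1 fit over all 4 groups (0.125). The PANC-1 call was lost without control replicate 1 (0.0558), control replicate 3 (0.0766), or siRNA replicate 1 (0.132), 2 (0.0581) or 3 (0.0592), and the difference between lines without AsPC-1 control replicate 1 (log2 difference 0.30, adjusted p = 0.103).

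DDX39A, the paralogue of DDX39B, showed the opposite order of group means in each line but passed in neither. It averaged 97.2 ± 2.58 CPM with siRNA and 90.5 ± 0.120 CPM in controls in AsPC-1 (SD, n = 3 and 2), and its libraries did not overlap. In PANC-1 it averaged 83.0 ± 1.80 CPM with siRNA and 89.8 ± 7.52 CPM in controls (SD, n = 3 each), again without overlap. The log2 differences were 0.089 in AsPC-1 (95% interval -0.0089 to 0.19, edgeR adjusted p = 0.162) and -0.11 in PANC-1 (95% interval -0.25 to 0.026, edgeR adjusted p = 0.316). The difference between the lines was -0.22 (95% interval -0.39 to -0.040) and did not pass (edgeR adjusted p = 0.179).

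The ratio of DDX39B to DDX39A CPM puts the helicases side by side. It was 0.732 ± 0.0400 with siRNA and 0.858 ± 0.0279 in controls in AsPC-1 (SD, n = 3 and 2). In PANC-1 it was 1.52 ± 0.0165 with siRNA and 1.22 ± 0.112 in controls (SD, n = 3 each). Of the 100-base windows of DDX39B, 92.7% are shared with the annotated readthrough gene ATP6V1G2-DDX39B, which had 0 to 1 counts in each library. The genes share 2079 exon bases on the same strand, 29.7% of the exons of DDX39B. Reads in the shared part may have been left out of the counts of both genes. The DDX39B levels, this ratio and its place per kilobase are therefore uncertain.

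NXF1, the export receptor, fell in AsPC-1. It measured 60.1, 60.6 and 56.7 CPM with siRNA, against 68.8 and 66.5 CPM in controls. The groups did not overlap, with a change of -0.21 on the log2 scale (SE 0.055, edgeR adjusted p = 0.00403). The call was lost without control replicate 1 (adjusted p = 0.0711) and in 1 fit over all 4 groups (0.0567). In PANC-1 NXF1 measured 48.8, 52.2 and 43.4 CPM with siRNA, against 52.7, 51.0 and 51.9 CPM in controls, and the groups overlapped (log2 difference -0.11, 95% interval -0.26 to 0.047, edgeR adjusted p = 0.405). Its responses were not shown to differ between lines (log2 difference 0.087, 95% interval -0.11 to 0.29, edgeR adjusted p = 0.724).

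Without MYEOV siRNA, the lines differed in most of the 10 genes. Comparing AsPC-1 controls with PANC-1 controls, 5 of the 10 genes were higher and 3 lower in AsPC-1, where 76.4% of 16182 genes were called (36.1% higher and 40.3% lower), so the count of 8 is near the background. The control libraries of these 8 genes did not overlap between lines, as for 83.6% of all genes (38.7% higher and 45.0% lower). THOC5 and THOC3 differed most, in opposite directions. THOC5 averaged 35.6 CPM in AsPC-1 controls and 68.8 CPM in PANC-1 controls, a log2 difference of -0.92 (SE 0.090, edgeR adjusted p = 1.87e-07). THOC3 averaged 108.6 CPM in AsPC-1 controls and 59.6 CPM in PANC-1 controls, a log2 difference of 0.89 (SE 0.087, edgeR adjusted p = 2.11e-07). Its pseudogene AC106795.1 also differed, at 19.6 CPM in AsPC-1 controls and 11.9 CPM in PANC-1 controls (log2 difference 0.74, edgeR adjusted p = 3.94e-05).

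ALYREF was lower in AsPC-1 controls than in PANC-1 controls, by -0.38 on the log2 scale (SE 0.069, edgeR adjusted p = 0.000129). The same control libraries also entered the fall for which ALYREF was picked. DDX39B was lower in AsPC-1 as well, at 77.6 CPM against 108.8 CPM in PANC-1 (log2 difference -0.46, SE 0.066, edgeR adjusted p = 1.22e-05).

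THOC2 (log2 difference 0.45, edgeR adjusted p = 6.45e-06), THOC6 (0.46, adjusted p = 7.85e-05) and NXF1 (0.41, adjusted p = 9.14e-05) were higher in AsPC-1 controls. THOC7 was higher by 0.24 (edgeR adjusted p = 0.0129), a call lost without AsPC-1 control replicate 1 (0.20, adjusted p = 0.149) and with upper-quartile scaling (0.15, adjusted p = 0.0905). THOC1 and DDX39A did not pass, with 95% intervals of -0.13 to 0.26 and -0.13 to 0.20 on the log2 scale.

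**Figure D3:**
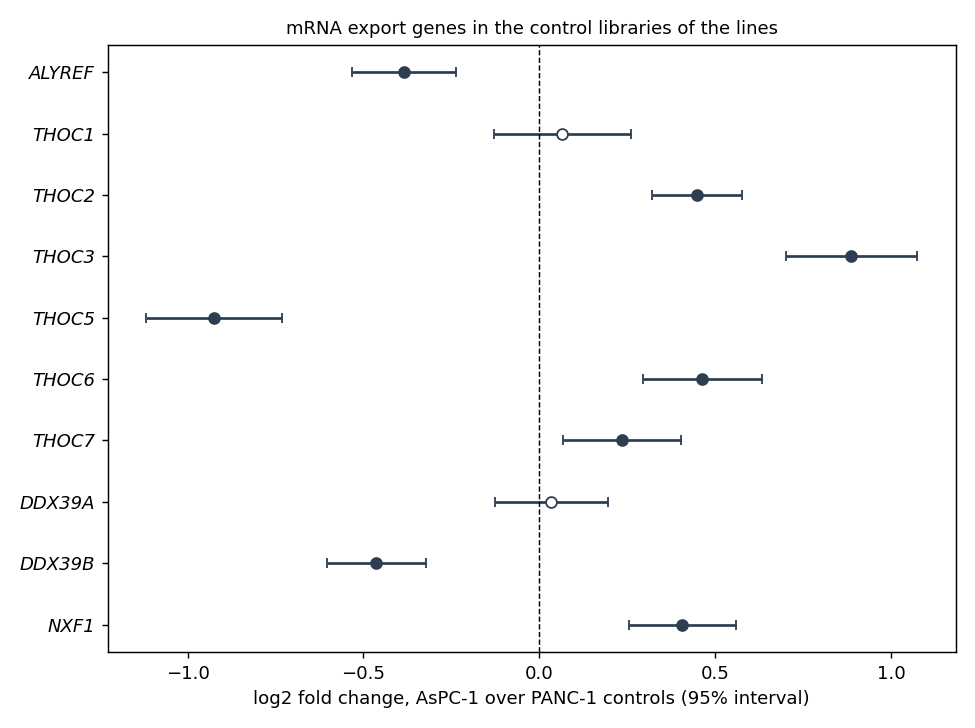
Log2 fold change of AsPC-1 controls over PANC-1 controls (x axis) for the 10 genes, with a 95% interval derived from edgeR's test. Filled circles passed the adjusted p threshold of 0.05. THOC3 at 0.89 and THOC5 at -0.92 lie at the ends, and THOC1 and DDX39A, drawn open, span 0.

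Beyond the 10 genes, 7 lists with 71 other genes of mRNA export and nuclear transport were read in the same fits. Of the 66 tested in AsPC-1, 10 rose and 10 fell, with a median log2 fold change of 0.0098, beside 16.6% higher and 16.3% lower among all genes. Of the 65 tested in PANC-1, 2 rose and 7 fell, with a median of -0.022, beside 4.16% higher and 4.92% lower among all genes. SARNP, LUZP4, NXF2, NXF3 and NXF5 did not pass the count filter in either line, and ZC3H11A did not pass it in PANC-1.

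The cap-binding complex, which receives ALYREF at the 5′ end of the mRNA, and its partners had 1 of 6 genes higher and 2 lower in both lines, beside 32.9% of all genes called in AsPC-1 and 9.08% in PANC-1. NCBP1, the large cap-binding subunit, was at 72.1% of control in AsPC-1 (log2 change -0.49, edgeR adjusted p = 2.41e-08) and 80.8% in PANC-1 (-0.31, adjusted p = 0.00673). ZC3H18, which links the cap to RNA decay, was at 73.8% of control in AsPC-1 (-0.45, edgeR adjusted p = 3.97e-07) and 77.5% in PANC-1 (-0.37, adjusted p = 0.00313). SRRT (ARS2), a cap-bound scaffold, was at 119.1% of control in AsPC-1 (0.24, edgeR adjusted p = 1.16e-05) and 115.6% in PANC-1 (0.21, adjusted p = 0.019). In PANC-1 the NCBP1 call was lost without siRNA replicate 1 (adjusted p = 0.0616), and the SRRT call without control replicate 3 (0.0828) or siRNA replicate 1 (0.109) or 2 (0.0771).

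In the exon junction complex list, 2 of 10 genes rose and 1 fell in AsPC-1, and 0 rose and 1 fell in PANC-1 by edgeR (0 higher and 1 lower both at an unadjusted p under 0.05 and in DESeq2). Both counts are near the shares of all genes called (32.9% for AsPC-1, 9.08% for PANC-1). RBM8A (Y14), a core subunit, was at 78.5% of control in AsPC-1 (log2 change -0.37, edgeR adjusted p = 2.06e-05) and 84.8% in PANC-1 (-0.24, adjusted p = 0.0172). The RBM8A call in PANC-1 was lost without control replicate 3 (adjusted p = 0.0569) or siRNA replicate 1 (0.0893), 2 (0.0617) or 3 (0.0558). In AsPC-1 CASC3, another core subunit, rose by 0.24 on the log2 scale (edgeR adjusted p = 0.00028) and RNPS1, an accessory splicing factor, by 0.19 (adjusted p = 0.000151).

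Among 20 nuclear pore genes, 2 rose and 5 fell in AsPC-1, near the 32.9% of all genes called there, and 1 rose and 2 fell in PANC-1, beside 9.08% of all genes. TPR, the nuclear basket protein, was at 84.3% of control in AsPC-1 (log2 change -0.26, edgeR adjusted p = 1.7e-06) and 84.2% in PANC-1 (-0.25, adjusted p = 0.00476). NUP133, of the outer ring, was at 83.1% of control in AsPC-1 (-0.28, edgeR adjusted p = 7.08e-05) and 86.8% in PANC-1 (-0.21, adjusted p = 0.0458), a call lost there without any 1 of 5 libraries (adjusted p 0.0591 to 0.209), all but control replicate 2, with upper-quartile scaling (0.0671) and in DESeq2 (0.06).

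The largest further calls in 1 line, at most 2 per line, were SEH1L lower (-0.22, edgeR adjusted p = 0.00442) and NUP155 higher (0.19, adjusted p = 0.00181) in AsPC-1, and NUP50 higher in PANC-1 (0.20, adjusted p = 0.024). The other pore genes called in AsPC-1, both higher and lower, are not named. The SEH1L call was lost without control replicate 1 (0.0542) and in 1 fit over all 4 groups (0.0542). The NUP50 call was lost without control replicate 1 (0.0631) or 3 (0.0846) or siRNA replicate 1 (0.12), 2 (0.0978) or 3 (0.0558).

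Of 12 other adaptors and TREX-associated genes tested in AsPC-1, 2 rose and 2 fell, near the 32.9% of all genes called there. FYTTD1 (UIF), an adaptor that binds NXF1 and can act beside ALYREF, averaged 56.8 ± 2.31 CPM with siRNA and 39.4 ± 1.65 CPM in controls (SD, n = 3 and 2), a log2 change of 0.51 (edgeR adjusted p = 6.21e-07). RBM15, an adaptor of the spen family, rose by 0.30 (edgeR adjusted p = 0.00391), a call lost without control replicate 1 (0.0516). The 2 that fell in AsPC-1 were ZC3H14 (log2 change -0.18, edgeR adjusted p = 0.00325) and POLDIP3 (-0.19, adjusted p = 0.00519). In PANC-1 none of 11 passed by edgeR or DESeq2, with 1 higher and 1 lower at an unadjusted p under 0.05. There FYTTD1 averaged 127.4 ± 1.97 CPM with siRNA and 114.1 ± 7.16 CPM in controls (SD, n = 3 each).

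In TREX-2, the pore-bound export complex, 1 of 6 genes rose in AsPC-1, beside 16.6% of all genes, and none fell by edgeR, with 1 higher and 0 lower at an unadjusted p under 0.05 and none by DESeq2. The gene was CETN3 (log2 change 0.24, edgeR adjusted p = 0.0334), a call lost without control replicate 1 (0.334) or siRNA replicate 1 (0.12) and in DESeq2 (0.153). None of the 6 passed in PANC-1 by edgeR or DESeq2, with 1 higher and 0 lower at an unadjusted p under 0.05. Of the NXF1 partners NXT1 and NXT2, neither passed in either line by edgeR or DESeq2, with 1 lower at an unadjusted p under 0.05 in AsPC-1 and 0 in PANC-1.

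Among 10 exportins and RAN cycle genes, 2 rose in AsPC-1, beside 16.6% of all genes higher there, and 2 fell in PANC-1, beside 4.92% of all genes lower there. RANBP2 (NUP358), at the cytoplasmic face of the pore, averaged 269.2 ± 10.6 CPM with siRNA and 228.1 ± 7.52 CPM in controls in AsPC-1 (SD, n = 3 and 2, log2 change 0.22, edgeR adjusted p = 6.91e-05). In PANC-1 it averaged 230.4 ± 4.72 CPM with siRNA and 260.3 ± 7.20 CPM in controls (SD, n = 3 each, log2 change -0.18, edgeR adjusted p = 0.0294). The PANC-1 call was lost without control replicate 3 (adjusted p = 0.0974) or siRNA replicate 1 (0.12), 2 (0.073) or 3 (0.118).

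XPO7, a transport receptor, rose by 0.12 in AsPC-1 (edgeR adjusted p = 0.047), a call lost without any 1 of the 5 libraries (0.0513 to 0.199), with no count filter (0.0662), in DESeq2 (0.161) and in 1 fit over all 4 groups (0.0998). RCC1, the RAN exchange factor, fell by 0.23 in PANC-1 (edgeR adjusted p = 0.0256), a call lost without control replicate 1 (0.0857) or 3 (0.0718) or siRNA replicate 1 (0.112) or 3 (0.103).

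**Figure D4:**
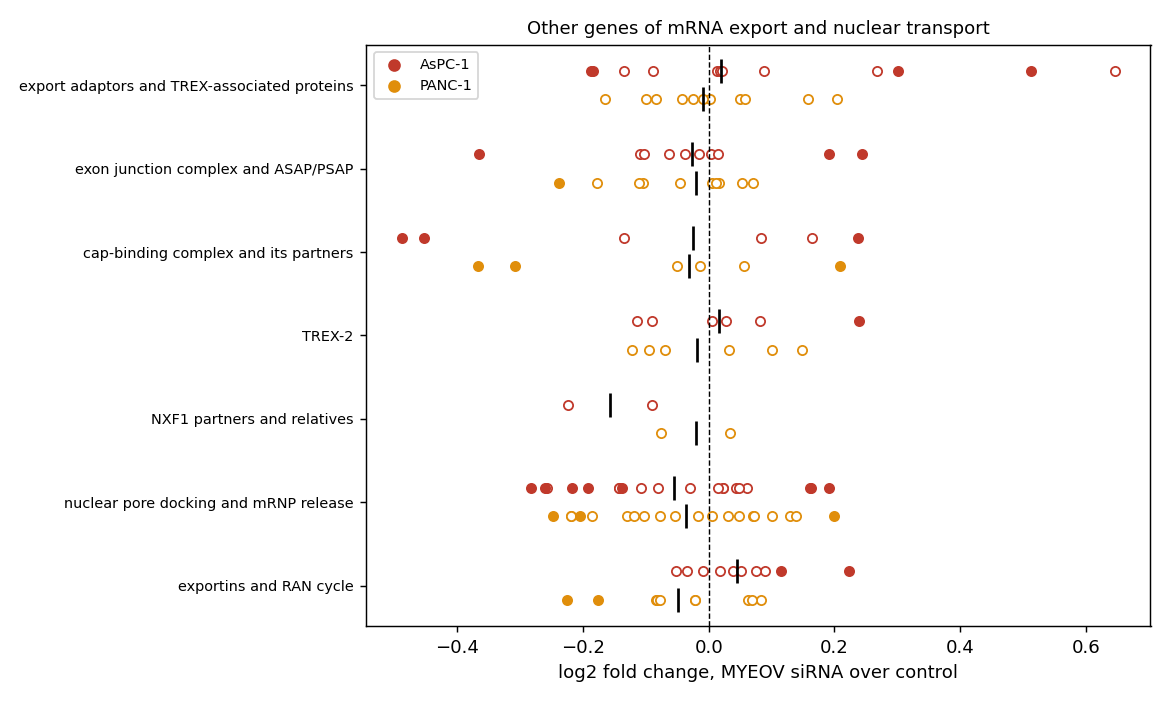
Log2 fold change, MYEOV siRNA over control (x axis), of the tested genes of 7 export and transport lists in AsPC-1 (red, upper rows) and PANC-1 (orange, lower rows); filled circles passed the adjusted p threshold of 0.05 and black ticks are list medians. The cap-binding list reaches -0.49 in AsPC-1 and -0.37 in PANC-1, and the highest point, 0.65 in the adaptor list, did not pass.

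Of the 5 list genes that fell in both lines, 4 carry the word of the ALYREF 3′ UTR, and RBM8A does not. Their sites are set beside that of ALYREF to let the flanks be compared, again with the word in capitals.
ZC3H18: ccagcacggttCTCATGTaaattacaagc
NCBP1: gtcattttttcCTCATGTcaaggtttttt
TPR: aaactggtataCTCATGTcaatattcttt
NUP133, first site: agtgggcctaaCTCATGTgagcttgataa
NUP133, second site: attcagccagcCTCATGTattttcagaat
These sites are read from GENCODE release 29 transcripts, and since the word was chosen on these fold changes, the 4 of 5 is a description beside the 14.1% of all genes in AsPC-1.

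The genes whose pattern over the 11 libraries was most like that of ALYREF were found by the root mean square difference of log2 CPM centred on each gene's mean, among 9362 protein-coding genes. They were RECQL (0.163), a DNA helicase, TMTC3 (0.171), TMEM30A (0.191), a flippase subunit, RCAN1 (0.198), a calcineurin regulator, and TTPAL (0.214). Their log2 fold changes, -1.62 to -1.22 in AsPC-1 and -1.06 to -0.74 in PANC-1, follow from this choice, since the siRNA difference dominates the ALYREF pattern. Of these 5, 4 carry the word in a 3′ UTR and TTPAL does not, beside 14.1% of the genes tested in AsPC-1 and 14.2% of those tested in PANC-1. This word was chosen on these fold changes and the genes for a pattern like that of ALYREF, so the count is a description. The closest of the other 9 export genes was THOC5, at 0.641 and position 725.

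Overlapping annotated genes could share reads with some of the 10. ALYREF shares 62 exon bases (3.94% of its exons) with ANAPC11 on the opposite strand. ANAPC11 averaged 32.5 ± 2.54 CPM with siRNA and 28.1 ± 0.452 CPM in controls in AsPC-1 (SD, n = 3 and 2, log2 difference 0.19, edgeR adjusted p = 0.0693). THOC1 shares 110 bases (1.36%) with USP14 on the opposite strand, which rose in AsPC-1 (0.26, edgeR adjusted p = 0.000131) and PANC-1 (0.26, adjusted p = 0.00737), the PANC-1 call being lost without siRNA replicate 1 (0.054). THOC5 shares 158 bases (2.01%) with NIPSNAP1 on the same strand, which rose in AsPC-1 (0.20, edgeR adjusted p = 0.0193), a call lost without control replicate 1 (0.29) or siRNA replicate 2 (0.129) and in DESeq2 (0.0824).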

How the data were processed

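RNA-seq read counts per gene, 1 file per library, were used as the authors deposited them. The submitters' processing notes name HISAT2, HTSeq and hg19, with no versions, and do not state the strand setting. No row lacked a gene ID. Gene names, positions and transcripts came from GENCODE release 29 (GRCh38), whose gene IDs matched all IDs of the files; the word search and shared windows rest on it. The authors' build differs from it, so its coordinates were not mixed with any from the files.

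Each comparison was fitted with edgeR 4.0.16 (R 4.3.3): filterByExpr, TMM scaling and the two-sided quasi-likelihood test with Benjamini-Hochberg adjustment over all genes tested. The lines were fitted separately, and the difference in response over all 4 groups, so that it need not equal the difference of the per-line values. Alternatives were leaving out each library, a block for the replicate number, DESeq2 1.42.0, a common fit of all 4 groups, other scaling (RLE, upper-quartile) and other count filters (none, 5 CPM). Calls that the block ended are given in the closing sections, not beside each gene above. All replicate pairs differed by more than sampling noise. Counts cover 12113093 to 15066456 per library, and coordinates are 1-based.

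The members and lists were chosen with earlier results of these data known. List genes are named if called in both lines (at most 4 per list and direction), then in 1 line (at most 2 per list and line); 5 genes are named as most like ALYREF (mean log2 CPM of at least 3, pseudocount 0.5 CPM), and overlapping genes if they reach 10 counts in a library. Outside the limit for lists, the 2 adaptor genes that fell in AsPC-1 are also named. Those 2 were not followed gene by gene through the alternatives. Shared windows are stretches of 100 bases.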

Additional observations from a re-analysis of the deposited data

Results flagged for a closer look

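Of the 10 export genes, DDX39B responded differently in the lines by a test of the difference itself, 0.34 on the log2 scale (PANC-1 minus AsPC-1, edgeR adjusted p = 0.00965). It was lower in 3 of 3 siRNA libraries in AsPC-1 and higher in 3 of 3 in PANC-1 than every control of the line. The call was not kept in every alternative, and with a block for the replicate number the value was 0.31 (edgeR adjusted p = 0.116). DDX39B counts are also uncertain, as 92.7% of its windows are shared with a readthrough gene. MYEOV itself differed by 0.59 (edgeR adjusted p = 0.00153), being lowered less in PANC-1, and a link between these responses was not tested.

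Of 66 listed genes, 6 differed by the same test, all with the lower log2 change in PANC-1, beside 4.36% of all genes called (2.07% higher and 2.28% lower). The count was 2 higher and 10 lower at an unadjusted p under 0.05, and 0 higher and 5 lower in DESeq2. RANBP2 differed by -0.41 (edgeR adjusted p = 0.000555), and this call held with every library left out in turn (adjusted p up to 0.0123). FYTTD1 differed by -0.37 (adjusted p = 0.0176), a call lost without AsPC-1 control replicate 1 (0.161) or 2 (0.0544), AsPC-1 siRNA replicate 1 (0.057) or PANC-1 siRNA replicate 2 (0.0528). A block for the replicate number also ended the FYTTD1 call (edgeR adjusted p = 0.112). NUP37, an outer-ring pore subunit called within neither line, differed by -0.40 (adjusted p = 0.0388, and 0.116 with the block). That call was lost without AsPC-1 control replicate 2 (0.279), AsPC-1 siRNA replicate 1 (0.0979) or 3 (0.104), PANC-1 control replicate 3 (0.0689), or PANC-1 siRNA replicate 1 (0.116) or 2 (0.0587).

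RNPS1 differed by -0.25 (adjusted p = 0.0331), RCC1 by -0.29 (0.0392) and CASC3 by -0.25 (0.0454). RLE scaling ended all 3 calls (0.0624 for RNPS1, 0.0566 for RCC1 and 0.0721 for CASC3), as did upper-quartile scaling (0.0758, 0.0669 and 0.0875 in that order). Each was also lost in 10 of 11 single-library omissions, with adjusted p of up to 0.2 for RNPS1, 0.261 for RCC1 and 0.21 for CASC3. The omission that kept the call was that of PANC-1 control replicate 2 for RNPS1 and RCC1, and of PANC-1 control replicate 1 for CASC3. CASC3 was also lost with no count filter (0.0812) and in DESeq2 (0.0767). The replicate block ended all 3 calls too (edgeR adjusted p = 0.195 for RNPS1, 0.184 for RCC1 and 0.172 for CASC3).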

How the results depend on the processing

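ALYREF stayed between -1.60 and -1.50 on the log2 scale in AsPC-1 and between -1.32 and -1.23 in PANC-1 under every alternative. Of the 9 other genes, 4 were called in AsPC-1, against 2 with no count filter, 2 in DESeq2, 1 in 1 fit over all groups, and 1 to 3 with a library left out. In PANC-1 1 was called, against 2 with no count filter, 2 in 1 fit over all groups, and 0 to 1 with a library left out. The difference between lines called 1 of 9, and 0 to 1 with a library left out. Over all genes, leaving out a library gave 538 to 1712 calls in PANC-1 (1356 with all) and 305 to 1056 for the difference between lines (727 with all).

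The replicate numbers gave no sign of pairing: same-numbered deviations correlated at -0.037 and -0.022 in AsPC-1 and 0.01, -0.392 and -0.1 in PANC-1. Differently numbered ones ranged from -0.369 to 0.37 in PANC-1. There siRNA replicate 2 with control replicate 1 gave 0.355, and siRNA replicate 3 with control replicate 2 gave 0.37. The main fit does not model such shared variation, and its cause was not tested. Deviations are from group means, so the 2 AsPC-1 controls mirror each other and the check says little there. With the number as a block, 628 genes and 0 of the 9 were called in PANC-1, and 241 genes and 0 of the 9 for the difference between lines, where DDX39B gave 0.31 (edgeR adjusted p = 0.116). In AsPC-1 the block ended the calls of DDX39B (edgeR adjusted p = 0.133), CETN3 (0.051) and XPO7 (0.0546). Among the named list genes in PANC-1 it ended those of RBM8A (0.0678), SRRT (0.0641), NUP133 (0.117), NUP50 (0.0806), RCC1 (0.0843) and RANBP2 (0.094).

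Log2 values near 0 changed sign, none of them called, and the cause was not tested. In AsPC-1 THOC5 (-0.012) gave 0.011 with the block, 0.0041 in 1 fit over all groups and -0.076 to 0.063 with a library left out, and THOC3 gave -0.019 to 0.10. In PANC-1 THOC1 (0.00047) gave -0.0051 with no count filter, -0.0025 with a filter of 5 CPM and -0.062 to 0.043 with a library left out. Omissions gave -0.032 to 0.046 for THOC2, -0.20 to 0.0074 for THOC3 and -0.082 to 0.042 for THOC7. Between the controls of the lines, upper-quartile scaling gave -0.019 for THOC1 and -0.051 for DDX39A, and omissions -0.0074 to 0.11 for THOC1 and -0.014 to 0.095 for DDX39A.

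With 2 AsPC-1 controls, leaving out 1 leaves a lone control assumed to vary like the other groups. The 10 genes had 239 or more counts in every library.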
